A study of Mus musculus with 6 samples.

Results

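The genes described here are 6 membrane carriers that take thyroid hormones, prostaglandins, conjugated steroids and other organic anions across cell membranes: Slco1c1, Slco1a4, Slco2b1, Slco3a1, Slco2a1 and Slc22a8. They were picked by symbol, as 6 of the 56748 genes of the count table, with no threshold on a measured value. The choice was made with earlier results of these data known, and the paper reports reduced Slco1c1 in the same cells. The number of carriers found lower is therefore not independent of those results. All 6 had enough counts to be tested, among 13107 tested genes.

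The libraries came from endothelial cells (ECs) that were sorted by flow cytometry from spinal cords of mice at P16, with 3 control and 3 TDP-43iΔEC libraries, for which the study's design names 3 animals per group. Control mice carried the floxed Tardbp gene, which encodes the RNA-binding protein TDP-43, and had no Cre. TDP-43iΔEC mice carried the same floxed gene and in addition Cdh5(PAC)-CreERT2, a tamoxifen-dependent Cre recombinase driven by the promoter of the endothelial gene Cdh5. Mice of both genotypes received tamoxifen in 3 daily injections from P5 to P7, so that the groups shared the drug and the floxed allele and differed in Cre. Libraries were prepared with SMARTseq2, which copies polyadenylated RNA with an oligo-dT primer and amplifies the cDNA by PCR.

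ECs of the brain and spinal cord are joined by tight junctions, and hydrophilic molecules and hormones reach the tissue through carriers in their membranes. The organic anion transporting polypeptides, encoded by Slco genes, are uptake carriers that exchange large amphipathic anions, and Slc22a8 encodes an organic anion exchanger of another family. In the mouse, Slco1c1 is known as a carrier for thyroxine at the blood-brain barrier, and Slco1a4 as a carrier for bile acids, steroid conjugates and several drugs at the same barrier.

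Tardbp itself was counted in every library. Its normalized counts (deposited counts divided by a size factor per library) were 1973.2, 2282.3 and 2069.4 in control mice 1, 2 and 3, against 981.9, 599.9 and 432.8 in TDP-43iΔEC mice 1, 2 and 3. All TDP-43iΔEC libraries were therefore below all control libraries, while the limma test gave a log2 fold change of -1.62 (SE 0.41) with an adjusted p of 0.287 and DESeq2 an adjusted p of 0.0216. Library totals ran from 25704871 to 47270654 counts, at which 3 counts stand for 0.0635 to 0.117 CPM (counts scaled to the library total), and 12972 to 16557 genes had at least 1 count. Control mouse 2 had the fewest detected genes, and TDP-43iΔEC mouse 1 was the only library with 0 counts of Xist, the RNA of the inactive X chromosome, together with counts of Y-linked genes. The 7 endothelial markers (Pecam1, Cldn5, Kdr, Flt1, Vwf, Cdh5 and Tek) summed to 9586 to 13408 CPM in control libraries and to 9579 to 12049 CPM in TDP-43iΔEC libraries, and these ranges overlap. Of the 7, 6 had a negative log2 fold change (median -0.22), and 0 were called by limma, beside 0.137% of all tested genes. Kdr, Flt1 and Tek were lower in TDP-43iΔEC without overlap, and Flt1, at -0.69 (limma adjusted p 0.0635), was called by DESeq2 (adjusted p 7.9e-06). Over all tested genes, 7.1% were lower without overlap and DESeq2 called 1.09% as lower. The 5 choroid plexus markers (Ttr, Folr1, Kl, Otx2 and Aqp1) had 0 counts in every library, and so had Slc22a6, Slc47a1 and Cdh1, which mark cells of the arachnoid barrier.

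For the 3 most abundant carriers, every TDP-43iΔEC library had fewer normalized counts than any control library, and for the other 3 the genotypes overlapped. Slco1c1 fell by 0.86 on the log2 scale and was the only 1 of the 6 genes with an adjusted p under 0.05 in limma, a rule met by 0.137% of all tested genes. Slco1a4 and Slc22a8 had log2 fold changes of -0.79 and -1.29 with no overlap between the genotypes (7.1% of all tested genes were lower in TDP-43iΔEC without overlap), but their adjusted p values missed the threshold. Slco2b1 and Slco2a1 had log2 fold changes of 0.05 and 0.26, and Slco3a1 was close to the detection limit in 2 control libraries. The plot of normalized counts by mouse shows every value. In bulk RNA from sorted cells, fewer cells that express a gene and less RNA per cell cannot be told apart.

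**Figure D1:**
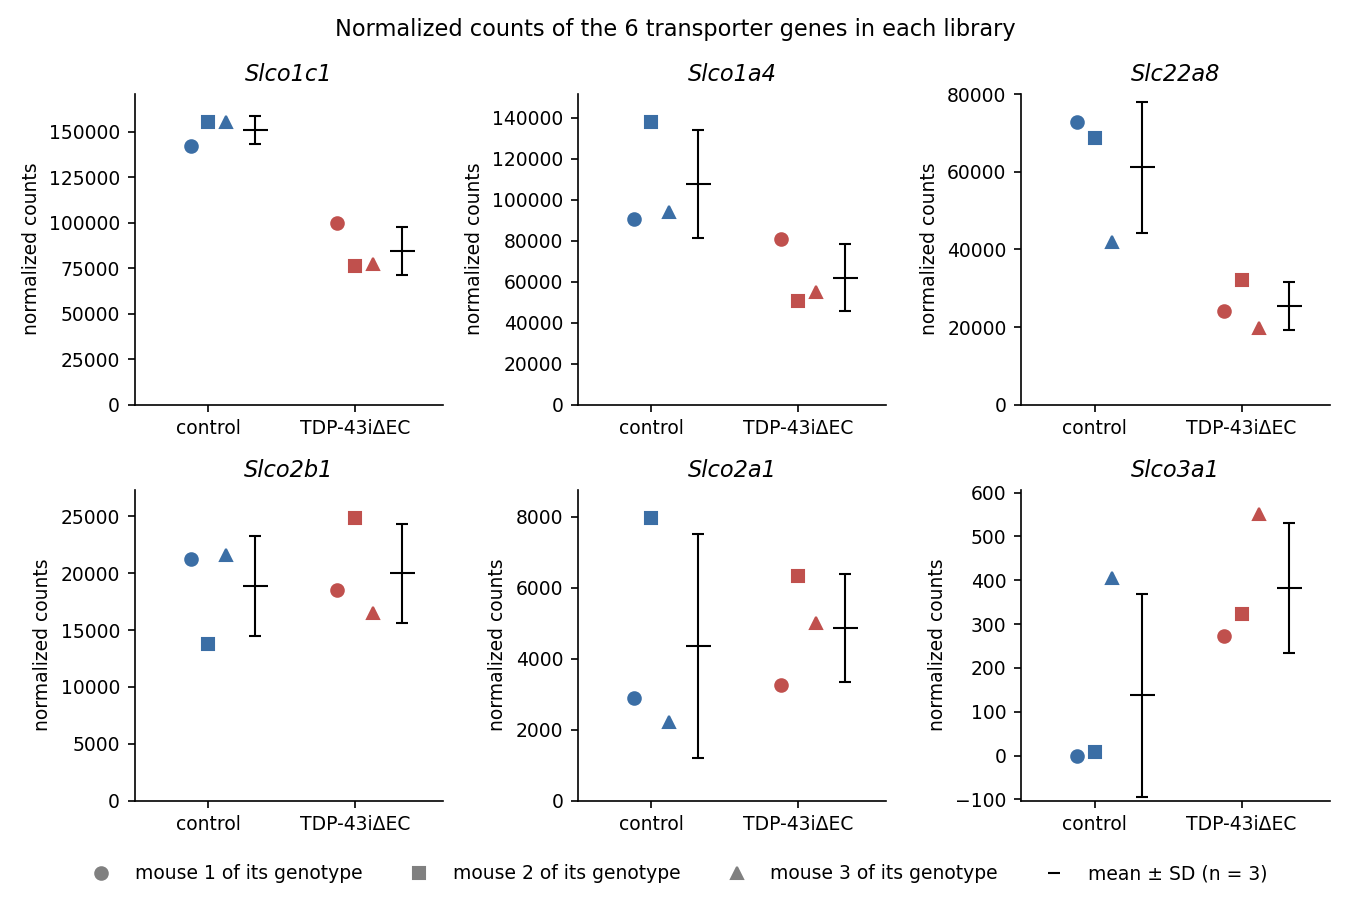
Normalized counts (y axis, a separate scale per panel) of each transporter gene in the 3 control libraries (blue) and the 3 TDP-43iΔEC libraries (red), with marker shape giving the mouse number within its genotype and bars giving the mean ± SD (n = 3). In the panels of Slco1c1, Slco1a4 and Slc22a8 every red point lies below every blue point, whereas the points overlap in the other 3 panels. The lower SD bar of Slco3a1 in control mice runs below 0 because 1 of the 3 values is much higher than the others.

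Slco1c1 lies on the plus strand of chromosome 6 (chr6:141469705-141516710, GRCm39, ENSMUSG00000030235), with 15 exons in its canonical transcript. Slco1a4 lies on the minus strand of the same chromosome (chr6:141751165-141802036, ENSMUSG00000030237) with 17 exons, inside a cluster of 8 Slco genes. Slc22a8 is on chromosome 19 (chr19:8568476-8589541, plus strand, ENSMUSG00000063796) and has 11 exons. The 250 bases upstream of the canonical transcript start of these 3 genes are printed because they are the carriers whose groups did not overlap. In all, 3 short motifs were searched for on both strands: CTTTGAT, a core that TCF and LEF factors of the Wnt pathway are known to recognize; AGGTCA, the core of thyroid hormone receptor and related nuclear receptor sites; and AGGAAG, a core of ETS factor sites. The sequences below read 5′ to 3′ on the strand of the gene, end at the base before the transcript start, and have the motif matches in capitals (a match on the opposite strand appears as its reverse complement, TGACCT for AGGTCA and CTTCCT for AGGAAG).
Slco1c1, chr6:141469520-141469769, plus strand: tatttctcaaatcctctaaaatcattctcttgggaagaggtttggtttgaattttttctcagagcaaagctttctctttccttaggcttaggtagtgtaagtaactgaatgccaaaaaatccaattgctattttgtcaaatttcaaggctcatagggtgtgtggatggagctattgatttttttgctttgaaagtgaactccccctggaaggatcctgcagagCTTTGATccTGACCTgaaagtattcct
Slco1a4, chr6:141802037-141802286, minus strand: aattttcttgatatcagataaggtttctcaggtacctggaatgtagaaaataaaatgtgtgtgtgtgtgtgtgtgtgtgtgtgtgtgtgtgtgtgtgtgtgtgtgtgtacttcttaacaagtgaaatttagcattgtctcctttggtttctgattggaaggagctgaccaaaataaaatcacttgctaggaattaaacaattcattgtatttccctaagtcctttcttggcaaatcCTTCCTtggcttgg
Slc22a8, chr19:8568226-8568475, plus strand: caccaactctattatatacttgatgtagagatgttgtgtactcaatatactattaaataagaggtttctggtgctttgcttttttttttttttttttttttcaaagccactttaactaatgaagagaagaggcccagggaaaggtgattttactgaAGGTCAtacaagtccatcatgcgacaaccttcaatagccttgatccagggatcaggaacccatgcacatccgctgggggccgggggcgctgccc

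The Slco1c1 window held CTTTGAT from 27 to 21 bases before the start and, without overlapping it, AGGTCA on the opposite strand from 18 to 13 bases before the start. Among 21770 promoters of protein-coding genes of the same length, 2.86% held CTTTGAT, 13.1% held AGGTCA and 28.9% held AGGAAG on either strand. The Slc22a8 window held AGGTCA from 94 to 89 bases before the start and no other of the 3 motifs. The Slco1a4 window held AGGAAG on the opposite strand from 14 to 9 bases before the start, downstream of a long run of TG repeats. In the windows not printed, Slco2b1 held 2 matches of AGGAAG, Slco2a1 held 1, and Slco3a1 held none of the 3 motifs. These matches describe the letters of the sequence, and binding was not measured.

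Slco1c1 encodes the thyroxine carrier of brain capillaries, often written OATP1C1. Its normalized counts were 142270.4, 155460.9 and 155418.0 in control mice 1, 2 and 3, against 99661.2, 76411.1 and 77563.4 in TDP-43iΔEC mice 1, 2 and 3. The control libraries lay close together, and the highest TDP-43iΔEC library was well below the lowest of them. The means were 151049.7 ± 7603 in control mice and 84545 ± 13103.5 in TDP-43iΔEC mice (SD, n = 3 each), and the fitted level in TDP-43iΔEC mice was 0.551 times the control level. The limma fit gave a log2 fold change of -0.86 (SE 0.12, 95% interval -1.12 to -0.60) and an adjusted p of 0.0342, lower in 3 of 3 TDP-43iΔEC mice than in any control mouse. Among all tested genes, 0.107% were called lower by this rule (14 genes) and 0.0305% higher (4 genes), and Slco1c1 ranked 16 by p value and 22 by mean level. The split of 14 lower and 4 higher became 6 and 4 with scaling by library size only, 23 and 17 with quantile normalization, and 0 and 1 with scaling to 5 endothelial marker genes. Slco1c1 stayed lower in each of these, with log2 fold changes of -0.67, -0.62 and -0.63, but its adjusted p values of 0.153, 0.0565 and 0.405 missed the threshold. The endothelial scaling used the summed counts of Pecam1, Cldn5, Kdr, Flt1 and Vwf. Kdr and Flt1 were themselves lower in TDP-43iΔEC without overlap. The call was also lost when any 1 of the 6 libraries was left out (log2 fold change -1.02 to -0.78, limma adjusted p 0.0637 to 0.132) and in edgeR's quasi-likelihood test (-0.87, adjusted p 0.292).

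Slco1a4 encodes the carrier known as Oatp1a4 or Oatp2, which is abundant in mouse brain capillaries and takes up bile acids, steroid glucuronides and cardiac glycosides. Control mice 1, 2 and 3 had 90506.1, 137927.8 and 94090.7 normalized counts, and TDP-43iΔEC mice 1, 2 and 3 had 80538.0, 50657.7 and 54778.4. Control mouse 2 was the highest library and TDP-43iΔEC mouse 1 came close to the lowest control library without reaching it. The log2 fold change was -0.79 (SE 0.21, 95% interval -1.26 to -0.32), with a limma p of 0.00419 and an adjusted p of 0.305. DESeq2's test placed it past the threshold, with a log2 fold change of -0.79 and an adjusted p of 0.0389. That test called 1.91% of all tested genes (250), 1.09% as lower, with an unadjusted p under 0.05 for 8.49%, against 0.137% (18) by limma and 0.0% (0) by edgeR's quasi-likelihood test, which gave an unadjusted p under 0.05 for 848 genes (6.47%).

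Slc22a8 encodes the organic anion transporter OAT3, which exchanges dicarboxylates for anionic metabolites, conjugates and drugs. The control values were 72846.8, 68578.9 and 41828.1 normalized counts, and the TDP-43iΔEC values were 24148.0, 32001.2 and 19833.3. Control mouse 3 was clearly below the other two control mice, yet above every TDP-43iΔEC mouse. Of the 3 lower carriers it had the largest fitted difference, with a log2 fold change of -1.29 (SE 0.25, 95% interval -1.85 to -0.72), a limma p of 0.000622 and an adjusted p of 0.170. No annotated exon overlaps Slc22a8. Of its canonical transcript, the only one searched, 2.16% also occurs in other genes in stretches of at least 51 bp at 97% identity. Without control mouse 3 the value was -1.53 with a limma adjusted p of 0.0129, and a requirement of at least 10 counts in every library gave -1.26 with 0.0436. DESeq2 gave -1.27 with an adjusted p of 0.000177. A limma fit with a replicate block gave -1.33 with an adjusted p of 0.0171, although mice of the 2 genotypes share only a replicate number. The threshold was missed in the other 5 fits without 1 library (limma adjusted p 0.308 to 0.558) and in edgeR (adjusted p 0.299). OAT3 is also known from the arachnoid barrier, and the sort used an antibody against the endothelial antigen CD31, on which ECs can be selected. Of the 4 arachnoid markers only Dpp4, which other cells express as well, was counted, and it was lower in TDP-43iΔEC libraries (25.4 to 40.7 CPM) than in control libraries (89.6 to 113 CPM), while Slc22a6, Slc47a1 and Cdh1 were at 0 in all 6 libraries.

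The groups of 3 of the 6 transporter genes did not overlap, in each case with TDP-43iΔEC lower. Over all tested genes the groups did not overlap in 7.1% with TDP-43iΔEC lower and in 7.93% with TDP-43iΔEC higher (15.0% in all). Among the 4331 genes with a mean log2 CPM of at least 5 as voom computes it, these shares were 9.86% and 8.8%. An exact permutation test of 3 against 3 libraries cannot go below p = 0.1, the value reached by Slco1c1, Slco1a4 and Slc22a8. By limma's unadjusted p under 0.05, 3 of the 6 genes were lower and 1, Slco3a1, was higher, beside 5.0% and 4.26% of all tested genes (9.27% in either direction). The median log2 fold change of the 6 genes was -0.37, and that of all tested genes was -0.02.

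Slco2b1 encodes OATP2B1, which carries sulfated steroids such as estrone sulfate. It lies on chromosome 7 (chr7:99306783-99360547, minus strand). The control libraries held 21245.6, 13766.9 and 21596.9 normalized counts, and the TDP-43iΔEC libraries held 18546.2, 24872.1 and 16509.7. The genotypes overlapped, with control mice 1 and 3 above TDP-43iΔEC mice 1 and 3 and mouse 2 of either genotype in the opposite order. The log2 fold change was 0.05 (SE 0.23, limma adjusted p 0.963), with a 95% interval from -0.47 to 0.57 that holds none of the estimates of the 3 lower carriers. Leaving out control mouse 2 turned the estimate to -0.19 and leaving out TDP-43iΔEC mouse 2 turned it to -0.11, and the other 4 fits without 1 library gave up to 0.17. Microglia and macrophages are known to express this gene too, and the sort used an antibody against the leukocyte antigen CD45, on which they can be gated out. Their 8 markers summed to 0 to 4.09 CPM in control libraries and to 0.244 to 8.21 CPM in TDP-43iΔEC libraries, with Adgre1 at 0 in all of them. Exons of the opposite-strand genes Gm15635 and Gm34280 overlap 8.79% of the exon bases of Slco2b1, and reads there cannot be assigned by strand.

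Slco2a1 encodes the prostaglandin transporter, which clears prostaglandins from the extracellular space, on chromosome 9 (chr9:102865911-102973201, plus strand). Control mice 1, 2 and 3 had 2883.3, 7974.7 and 2215.4 normalized counts, and TDP-43iΔEC mice 1, 2 and 3 had 3272.5, 6320.6 and 5020.8. Control mouse 2 exceeded every TDP-43iΔEC library, and the other two control libraries were below all of them. The log2 fold change of 0.26 (SE 0.46, limma adjusted p 0.876) had a 95% interval from -0.78 to 1.3, so that a change of the size seen in Slc22a8 lies outside the interval on the lower side and one of the size seen in Slco1c1 lies just outside it. Without control mouse 2 the estimate was 0.78 (limma adjusted p 0.545), without TDP-43iΔEC mouse 1 it was 0.58, and without control mouse 3 it was -0.11.

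Slco3a1 encodes OATP3A1, a broadly expressed carrier of prostaglandins and thyroxine, on chromosome 7 (chr7:73925161-74204944, minus strand). The deposited counts were 0, 9 and 498 in control mice 1, 2 and 3, against 360, 270 and 389 in TDP-43iΔEC mice 1, 2 and 3, or 0, 8.01 and 404 against 273, 322 and 552 normalized counts. Control mouse 3 fell inside the TDP-43iΔEC range, while the other two control libraries had few or no counts. The fitted log2 fold change of 4.84 (SE 2.08, 95% interval 0.12 to 9.56, limma adjusted p 0.530) depends on the small count that the fit adds before taking logarithms, and it ranged from 1.42 to 7.44 over the alternatives tried, with 2.43 without control mouse 1 and 7.44 without control mouse 3. Opposite-strand genes overlap 5.13% of the exon bases of Slco3a1 and 0.761% of those of Slco2a1.

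**Figure D2:**
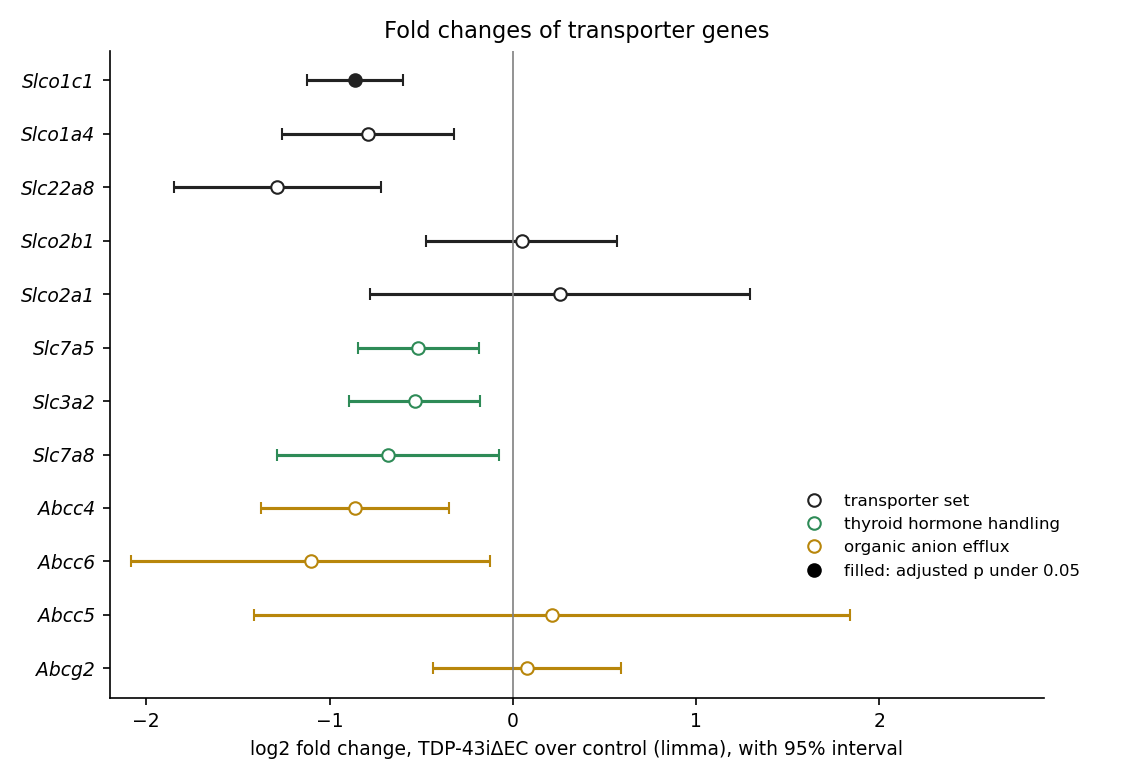
Log2 fold changes of TDP-43iΔEC over control with their 95% intervals from limma (x axis) for 5 of the 6 transporter genes (black), for 3 genes of thyroid hormone handling (green) and for 4 genes of organic anion efflux (gold), where a filled point marks an adjusted p under 0.05. Slco1c1 is the only filled point. The intervals of Slco2b1, Slco2a1, Abcc5 and Abcg2 include 0, and Slco3a1 and Abcc1 are left out because their intervals reach past 9.

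Levels of different genes were compared as normalized counts per kb of annotated exon. In control ECs, Slco1c1 was the highest at 20523 ± 1033, followed by Slco1a4 at 12626 ± 3101 and Slc22a8 at 9074 ± 2497 normalized counts per kb (SD, n = 3). Slco2b1 followed at 3023 ± 708, Slco2a1 at 319 ± 230 and Slco3a1 at 14.1 ± 23.7. Neighbours in this order did not overlap between libraries, except Slco1a4 and Slc22a8, which differed by 1.39 times in their means. With the length of the longest transcript in place of all exon bases the order was kept, but Slco1c1 (31971 to 34935 normalized counts per kb) and Slco1a4 (22746 to 34664) then overlapped, while Slco1a4 and Slc22a8 (7542 to 13135) no longer did, with means of 27019 and 11014. In TDP-43iΔEC ECs the order was also kept, with 11487 ± 1780 for Slco1c1, 7280.3 ± 1902 for Slco1a4, 3762 ± 916 for Slc22a8, 3199.7 ± 698 for Slco2b1, 356 ± 112 for Slco2a1 and 39.2 ± 15.3 for Slco3a1. There Slc22a8 and Slco2b1 were the overlapping neighbours. Their means stood 3.00 times apart in control ECs and 1.18 times apart in TDP-43iΔEC ECs.

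**Figure D3:**
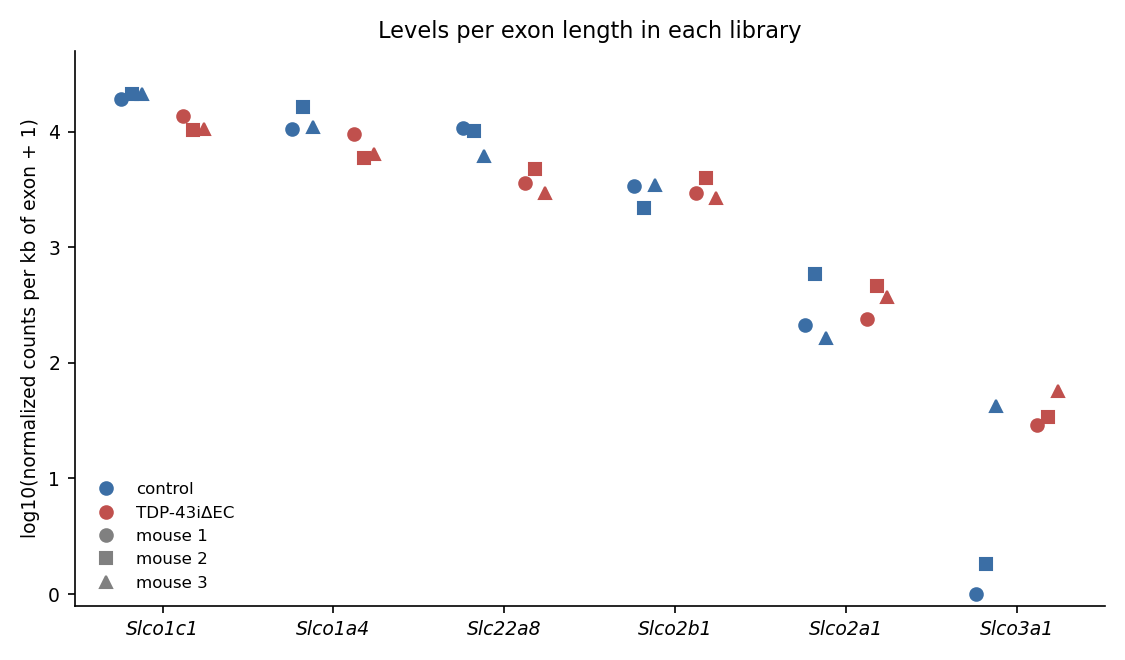
Level of each transporter gene as log10 of normalized counts per kb of exon plus 1 (y axis) in every library, with control in blue, TDP-43iΔEC in red and the marker shape giving the mouse number. The genes stand in the order of their control means, from Slco1c1 at 20523 to Slco3a1 at 14.1 normalized counts per kb. The ranges of the red points of Slc22a8 and Slco2b1 overlap.

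As a share of all deposited counts, without any scaling factor, the 6 genes made up 0.900%, 0.951% and 0.823% in the 3 controls, against 0.664%, 0.566% and 0.478% in TDP-43iΔEC mice 1, 2 and 3. Every TDP-43iΔEC library was below every control library, with a difference in means of -0.322 percentage points (exact permutation p 0.1, the smallest possible). Hemoglobin and ribosomal RNA take up part of these totals, and the 18S rRNA gene alone held 14.8% to 18.5% of control and 8.04% to 13.6% of TDP-43iΔEC counts. The 5 erythroid markers summed to 6336 to 9759 CPM in control libraries and to 2197 to 2909 CPM in TDP-43iΔEC libraries, and with rRNA, hemoglobin and mitochondrially encoded genes left out of the total the difference was -0.447 percentage points. Of the summed level per kb of the 6 carriers, Slco1c1 held 45.3 ± 4.37% in control and 44.0 ± 2.9% in TDP-43iΔEC ECs, and Slco1a4 held 27.5 ± 4.26% and 27.7 ± 4.23%. The share of Slc22a8 was 19.8 ± 4.81% in control and 14.5 ± 3.59% in TDP-43iΔEC ECs, and that of Slco2b1 was 6.76 ± 2.08% and 12.3 ± 2.91%. The shares of Slco2b1 did not overlap between the genotypes, and those of the other 3 genes did. A share depends on the levels of the other carriers too, and the level of Slco2b1 itself overlapped between the genotypes (log2 fold change 0.05).

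Ratios between 2 carriers within the same library need no scaling between libraries, and 15 pairs were compared. The log2 ratio of Slco1c1 to Slco1a4 was 0.65, 0.17 and 0.72 in controls, against 0.31, 0.59 and 0.50 in the TDP-43iΔEC mice. The groups overlapped, with a difference of -0.05 (exact permutation p 0.8, adjusted over the 15 pairs 0.857). For Slco1c1 to Slco2b1 the log2 ratio was 3.03 ± 0.41 in control and 2.09 ± 0.42 in TDP-43iΔEC mice (SD, n = 3, exact permutation p 0.1), and the groups did not overlap. Slco2b1 reached 0.292, 0.201 and 0.516 of the counts of Slc22a8 in the 3 controls, against 0.768, 0.777 and 0.832 in the 3 TDP-43iΔEC mice, a difference of 1.35 on the log2 scale (exact permutation p 0.1). This pair had the most even values among TDP-43iΔEC mice of the pairs plotted. Slco2a1 to Slc22a8 had a mean log2 ratio of -4.00 ± 0.80 in control and -2.40 ± 0.45 in TDP-43iΔEC mice, without overlap (exact permutation p 0.1). Against the other lower carriers Slc22a8 did not separate. The log2 ratios of Slco1c1 and of Slco1a4 to Slc22a8 overlapped, with differences of 0.41 and 0.46 (exact permutation p 0.2 and 0.4). In all, 5 of the 15 pairs did not overlap, of which 2 involve the low counts of Slco3a1. The pairs reuse the same 6 genes, and no share over other gene pairs was computed, so that this count cannot be called unusual. The smallest adjusted p over the 15 pairs was 0.300. With 3 against 3 libraries the permutation p cannot go below 0.1, so that no pair could have passed the threshold of 0.05.

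**Figure D4:**
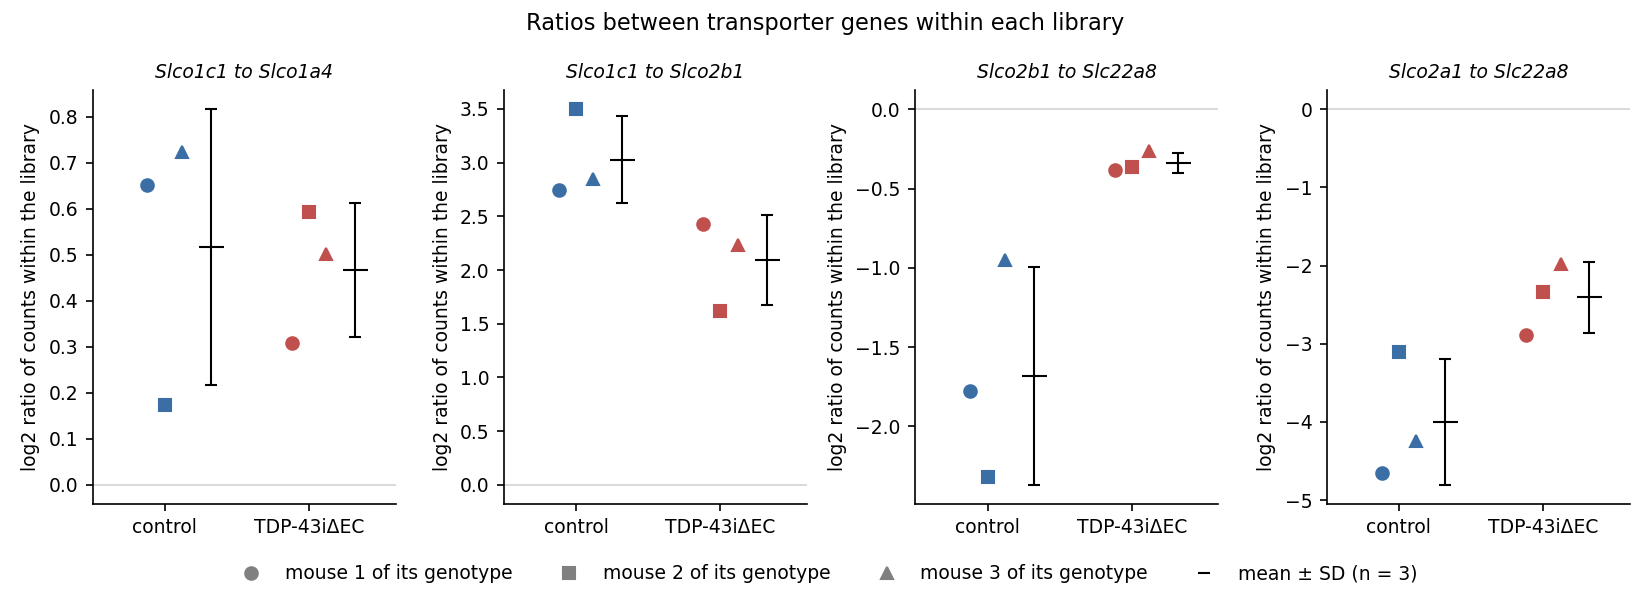
Log2 ratio of the counts of 2 transporter genes within each library (y axis, a separate scale per panel) for 4 pairs, with control in blue, TDP-43iΔEC in red, marker shape for the mouse number and bars for the mean ± SD (n = 3). The ratio of Slco1c1 to Slco1a4 overlaps between the genotypes, and in the other 3 panels the red points lie apart from the blue points.

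Of the 8 Slco genes in the chromosome 6 cluster that holds Slco1c1 and Slco1a4, the other 6 had few counts. Slco1a5 had 251, 3 and 189 counts in control and 50, 8 and 229 in TDP-43iΔEC mice, and Slco1b2, a liver carrier of bile acids, had 2, 0 and 28 against 316, 0 and 50. Slco1a6 had 0 counts in every library, Slco1a1 had 1 count in all, and Slco1a7 and Slco1a8 had no more than 30 in any library. No exon of Slco1c1 or Slco1a4 overlaps another gene. Of their canonical transcripts, 0% was shared with another gene over at least 51 bp at 97% identity, so that counts from these transcripts are separable from those of the cluster. Exon bases of other transcripts were not searched. The canonical transcripts hold 4327 of 7360 exon bases of Slco1c1 and 3963 of 8515 of Slco1a4. Over all other Slco genes, 3 of 12 were tested, none was called by limma, and their median log2 fold change was 0.39. Of 25 further Slc22 genes, 6 were tested and none was called, and 16 had no count in any library. Limma called 0.137% of all tested genes, so that no call among so few is not a result about these lists.

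TDP-43 is known to bind UG-rich RNA, and runs of at least 6 TG repeats (12 bases) on the sense strand were counted in the gene bodies. Slco1c1 held 5 such runs, Slco1a4 held 20, Slc22a8 held 8, Slco2b1 held 6, Slco2a1 held 9 and Slco3a1, the longest gene, held 28. Per 10 kb these were 1.06, 3.93, 3.80, 1.12, 0.839 and 1.00 runs, beside a median of 0.651 over 13060 tested genes, of which 66.1% held at least 1. The longest runs of the 2 most abundant carriers, each within an intron, are printed with 10 flanking bases on either side and the repeats in capitals.
Slco1c1, run at chr6:141510351-141510420, plus strand: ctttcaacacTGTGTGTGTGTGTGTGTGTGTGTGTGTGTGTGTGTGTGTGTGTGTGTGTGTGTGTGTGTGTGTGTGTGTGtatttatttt
Slco1a4, run at chr6:141775916-141775973, minus strand: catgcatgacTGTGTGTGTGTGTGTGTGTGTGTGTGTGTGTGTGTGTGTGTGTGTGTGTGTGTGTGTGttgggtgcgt

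These runs span 70 and 58 bases, against a median longest run of 30 bases over the 13060 tested genes, counting 0 for genes without a run. The longest run was 24 bases in Slc22a8, 38 in Slco2b1, 54 in Slco2a1 and 48 in Slco3a1. Slco1c1 (47006 bp) and Slco1a4 (50872 bp) are also longer than the median of those tested genes, 22573 bp. All 20 runs of Slco1a4 were intronic, and 4 of the 5 runs of Slco1c1 were, the remaining one lying in an exon of a noncanonical transcript. The 8 runs of Slc22a8 lay within 142 bases (chr19:8569415-8569556, plus strand), in an exon of noncanonical transcripts only, and 13 of the 20 runs of Slco1a4 lay within 333 bases (chr6:141759781-141760113, minus strand). Counting runs up to 100 bases apart as a single stretch, Slc22a8 held 1, Slco1a4 held 6, Slco1c1 held 5, Slco2b1 held 6, Slco2a1 held 9 and Slco3a1 held 23, so that the densities per 10 kb of Slc22a8 and Slco1a4 count pieces of few stretches. Gene-level counts hold no information on splicing, which was not measured here.

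The 3 genes of thyroid hormone handling described here, outside the 6 carriers, had negative log2 fold changes, and none was called by limma. Slc7a5 and Slc3a2 encode the light and heavy chains of the amino acid carrier LAT1, which also accepts thyroid hormones, and Slc7a8 encodes the related light chain LAT2. Slc7a5 averaged 20698 ± 1930 against 14708.5 ± 981 normalized counts (log2 fold change -0.52, SE 0.15, limma adjusted p 0.353), without overlap. Slc3a2 averaged 73605 ± 12944 against 51926 ± 7911, with overlap, and Slc7a8 averaged 4738 ± 545 against 3063 ± 982, without overlap. Of 9 listed genes, 3 were tested and 0 were called, and the 3 had negative log2 fold changes from -0.68 to -0.52 with a median of -0.54 and limma adjusted p values of 0.353 or more. All 3 had an unadjusted p under 0.05, and 2 did not overlap, beside 5.0% and 7.1% of all tested genes in that direction. By adjusted p, limma called 0.137% of all tested genes. The deiodinase genes Dio1, Dio2 and Dio3, the hormone-binding protein gene Crym and Ttr, which encodes transthyretin, had 0 counts in every library.

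Genes of the nuclear response to thyroid hormone did not pass the test. Of 13 receptors, cofactors and response genes, 10 were tested and 0 were called by limma. Their log2 fold changes were negative in 5 and positive in 5 (median -0.10), and no group pair was free of overlap. Over all tested genes, limma called 0.137% and 15.0% did not overlap, so that 0 called among so few genes says little about them. Thra, the receptor gene with counts, averaged 566 ± 125 normalized counts in control and 584 ± 97.9 in TDP-43iΔEC ECs, and Thrb had 0 counts in every library. Klf9, a gene known to respond to thyroid hormone, had a log2 fold change of -0.62 (SE 0.36, limma adjusted p 0.604). Of 7 nuclear receptors known to act on transporter genes, 5 were tested and 0 were called by limma, with a median of 0.01. In both lists 0 genes had an unadjusted p under 0.05 in limma, beside 9.27% of all tested genes in either direction.

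Efflux carriers work beside the uptake carriers in the same membranes. Abcc4, which encodes the exporter MRP4 for prostaglandins and organic anions, had normalized counts of 10981.8, 13607.5 and 10927.9 in the controls, and of 8703.7, 5098.2 and 6039.7 in the TDP-43iΔEC mice, without overlap (log2 fold change -0.86, SE 0.23, limma adjusted p 0.308). Abcc6 did not overlap either, at -1.10 (SE 0.43, limma adjusted p 0.498). Abcg2, which encodes the multidrug exporter BCRP, averaged 37343 ± 7830.4 against 39751 ± 12388 normalized counts (log2 fold change 0.08, limma adjusted p 0.934). Of 7 listed efflux genes 5 were tested and 0 were called, with a median log2 fold change of 0.08. Among 18 genes of prostaglandin synthesis, breakdown and receptors, 8 were tested and 0 were called. Ptgs2, the inducible cyclooxygenase gene, had normalized counts of 321, 3.56 and 326 in the controls, and of 1078, 357 and 651 in the TDP-43iΔEC mice, without overlap and with a limma adjusted p of 0.580. By limma's unadjusted p under 0.05, 2 efflux genes (Abcc4 and Abcc6) and 1 prostaglandin gene (Abcc4, which is on both lists) were lower, beside 5.0% of all tested genes, and the shares without overlap over all genes were 7.1% lower and 7.93% higher. DESeq2 and edgeR also called 0 genes of the thyroid hormone, efflux, prostaglandin, nuclear receptor and other Slco and Slc22 lists. Over all tested genes, limma called 0.137%, DESeq2 1.91% and edgeR 0.0%.

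The genes whose levels followed each carrier most closely over the 6 libraries were ranked by the root mean square difference of centred log2 CPM among 4334 tested genes with a mean log2 CPM of at least 5, here computed with a prior count of 2. Closest to Slco1c1 were Acsl3 (0.0662), Ccdc28b (0.0951) and Ergic3 (0.112). Closest to Slco1a4 were Nmt2 (0.0658), the exporter gene Abcc4 (0.105) and Ly6c1 (0.107). Slc22a8 was followed by Cyp2d22 (0.169), Pltp (0.183) and Bap1 (0.188), and Slco2b1 by Ube2f (0.0551), Nrd1 (0.0808) and Eif3l (0.0854). Slco2a1 had no gene closer than Rbmxl1 (0.197), Snd1 (0.220) and Klf3 (0.223), and for Slco3a1 the closest genes, Kctd12, Smarca5 and Jpt1, were 2.25 to 2.43 away. These are likenesses over 6 libraries of 2 genotypes, and a shared difference between the genotypes contributes to them.

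Markers of other cells moved with genotype in part. The 6 astrocyte markers summed to 217 to 254 CPM in control and 139 to 195 CPM in TDP-43iΔEC libraries. Most of this sum was Gja1, with 10378, 8639 and 10434 counts in controls and 4993, 5307 and 4400 in TDP-43iΔEC mice. Gfap overlapped, at 292, 939 and 2 against 1134, 106 and 0 counts. Of the 4 astrocyte markers tested, 2 (Gja1 and Slc1a2) were lower without overlap, beside 7.1% of all tested genes, so the sum mainly describes Gja1. The erythroid list was lower without overlap as given above. So was Dpp4, the only arachnoid marker with counts, which other cells express as well. Of the 5 erythroid markers, limma called 4 lower (Hba-a1, Hba-a2, Hbb-bs and Hbb-bt) and DESeq2 called all 5. Over all tested genes, limma called 0.107% and DESeq2 1.09% as lower. The sort also used an antibody against the erythroid antigen Ter119, on which erythroid cells can be gated out. The 6 mural markers (477 to 821 and 396 to 1020.3 CPM), 6 neuronal markers (3.11 to 9.40 and 0.933 to 3.29 CPM) and 6 fibroblast and meningeal markers (35.4 to 40.8 and 12.8 to 43.9 CPM) overlapped. The 6 oligodendrocyte markers summed to 297 to 562 CPM in control libraries and to 530, 59.4 and 15.7 CPM in TDP-43iΔEC mice 1, 2 and 3, so that TDP-43iΔEC overlapped control through mouse 1 alone. All 6 had negative log2 fold changes (median -5.46), 0 were called by limma, and Olig1 was called by DESeq2 (adjusted p 0.0287). The part of these markers in the differences of Slco1c1, Slco1a4 and Slc22a8 was not tested.

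**Figure D5:**
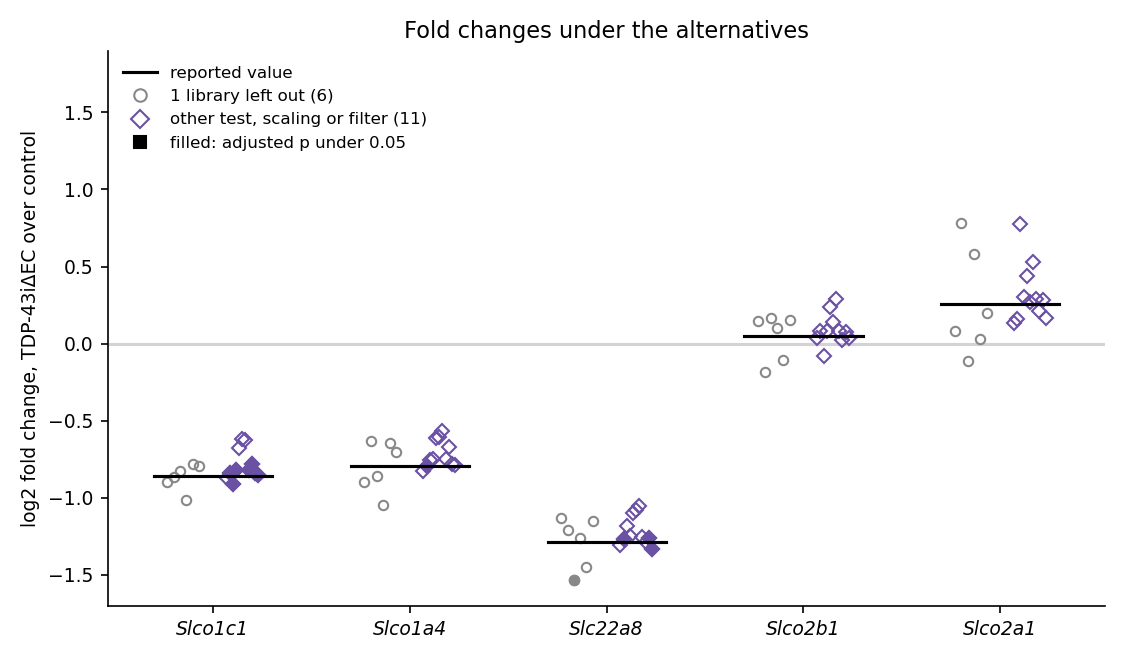
Log2 fold change of TDP-43iΔEC over control (y axis) for 5 transporter genes under 6 fits that each leave out 1 library (circles) and 11 fits with another test, scaling, weighting, filter or blocking (diamonds), where the line is the reported value and filled symbols have an adjusted p under 0.05. Slco1c1, Slco1a4 and Slc22a8 stay below 0 in all 17 fits, and Slco2b1 and Slco2a1 lie on both sides of 0.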

How the data were processed

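The data were RNA-Seq counts of 6 libraries of sorted spinal cord ECs, 3 per genotype, grouped by the labels of the deposited samples. The authors used STAR 2.7.8a for mapping to GRCm39 and obtained expected counts per gene with RSEM 1.3.0 and GENCODE M30, and the deposited estimated counts are whole numbers without normalization. RSEM's default options do not use strand. No molecular identifiers are described, PCR copies were counted as reads, and RNA input and PCR cycles differed between samples. The members and lists were chosen with earlier results of these data known.

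Genotypes were compared in R 4.3.3 with limma 3.58.1 (voom), after TMM scaling and filterByExpr of edgeR 4.0.16, with Benjamini-Hochberg adjustment over all 13107 tested genes and a threshold of 0.05. Normalized counts used size factors of DESeq2 1.42.0. Exon lengths, promoters and repeats came from GRCm39 with GENCODE M39, which matched 98.7% of identifiers. Sequence sharing of the canonical transcripts came from BLAST 2.17.0. Ratios had 0.5 added to each count, and permutation tests were exact and two-sided (scipy 1.17.1). The text names Tardbp, the 6 carriers, listed genes and, per carrier, the 3 genes of most similar pattern, and 1 listed gene is not reported here. Fits were tested on simulated data. Alternatives were edgeR's quasi-likelihood test, DESeq2, sample weights, 4 scalings, abundant genes left out, 2 filters, a replicate block and each library left out.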

Additional observations from a re-analysis of the deposited data

How the results depend on the processing

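Slco1c1, Slco1a4 and Slc22a8 kept a negative log2 fold change in all 17 alternatives (-1.02 to -0.62, -1.05 to -0.56 and -1.53 to -1.05), and 7, 1 and 4 of these passed the threshold. The 18 genes called became 0 with edgeR (848 at an unadjusted p under 0.05), 250 with DESeq2, 10 with library size scaling, 40 with quantile normalization, 1 with scaling to endothelial markers, 76 without a filter, 39 with at least 10 counts in every library, and 0 to 13 with 1 library left out, 0 without TDP-43iΔEC mouse 1 (960 at an unadjusted p under 0.05). Of the 6 carriers, 1 called by limma, the count was 3 with DESeq2, 2 with at least 10 counts and 0 with edgeR, library size, quantile and endothelial scaling, and 0 to 1 with 1 library left out, where the 1 was Slc22a8. Slco1c1 lost its call in edgeR (-0.87, adjusted p 0.292), with library size (-0.67), quantile (-0.62) and endothelial scaling (-0.63) and without any 1 library (-1.02 to -0.78). Slco1a4 gained one in DESeq2 (-0.79), and Slc22a8 in DESeq2 (-1.27), with at least 10 counts (-1.26) and without control mouse 3 (-1.53, range without 1 library -1.53 to -1.13). The cause was not tested. Slco2b1 turned negative with sample quality weights (-0.083) and without mouse 2 of either genotype (leaving out 1 library gave -0.19 to 0.17), and Slco2a1 without control mouse 3 (leaving out 1 library gave -0.11 to 0.78). The ratio of Slco1c1 to Slco1a4, -0.05, became 0.019, 0.055 and 0.031 without control mouse 1, control mouse 3 and TDP-43iΔEC mouse 1 (range without 1 library -0.22 to 0.055). The share of all counts differed by -0.447 instead of -0.322 percentage points with rRNA, hemoglobin and mitochondrially encoded genes left out. Slco3a1 had no value with at least 10 counts in every library. Library size and endothelial scaling moved the median of all genes to 0.18 and 0.23, and leaving out control mouse 2 moved it to -0.17. Relative to those medians Slco1c1 was at -0.85 under either scaling. The replicate numbers share only a number (correlations of same-numbered mice -0.06, -0.11 and -0.02). With a replicate block, 22 genes and 2 carriers (Slco1c1 and Slc22a8, the latter at -1.33 with adjusted p 0.0171) were called.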
